A study of Homo sapiens with 4 samples.

Results

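The insertion of mitochondrial DNA near the start of chromosome 1 was followed through 4 RNA libraries of U2OS, a human osteosarcoma cell line. Its 7 annotated copies of mitochondrial genes (MTND1P23, MTND2P28, MTCO1P12, MTCO2P12, MTATP8P1, MTATP6P1 and MTCO3P12) were chosen by gene symbol from the 60676 genes of the count table. Earlier results of these data were known when they were chosen, among them that MTATP6P1 lay far below input in nRIP-LC3B, so that their loss over input is given as a description. The assay was native nuclear RNA immunoprecipitation (nRIP), which isolates RNA bound to a protein in an uncrosslinked nuclear lysate. The libraries are called by their labels: nRIP-LC3B, a pull-down by an antibody to the autophagy protein LC3B, nRIP-IgG, a pull-down by non-specific IgG, and Input-LC3B and Input-IgG, the lysates labelled as their inputs and given no antibody. All 4 are polyadenylated RNA of the same line, and the labels name no treatment or genotype. With 1 library in each group nothing could be checked against replicates, no p-value was computed, and intervals cover counting error only.

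Mitochondria carry their own circular genome, which encodes subunits of the respiratory chain and of ATP synthase together with their ribosomal and transfer RNAs. Over evolution pieces of it have been copied into the chromosomes, where they are read by the nuclear genetic code and are annotated as pseudogenes. The chromosome 1 insertion is a recent and long copy that is nearly identical to the mitochondrial sequence. A sequencing read from such a stretch can match both places, and which of them receives it depends on the aligner and the counting rule. For each copy the question was therefore whether its reads followed those of the mitochondrial gene it derives from, called its parent here.

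By the deposited coordinates (hg38) the 7 copies span 5861 bases of chromosome 1, from 629062 to 634922, all on the plus strand and all annotated as unprocessed pseudogenes. The order of their parents on the mitochondrial genome is the same. The distance between copy and parent starts was 625169 to 625171 bases for the 6 copies from MTND2P28 to MTCO3P12, so the stretch has kept the parental spacing to within 2 bases. MTATP8P1 and MTATP6P1 have exactly the lengths of their parents, 207 and 681 bases, and overlap each other by 46 bases, as MT-ATP8 and MT-ATP6 do. MTND2P28 is 2 bases longer than MT-ND2, MTCO1P12 is 1 base longer than MT-CO1, and MTCO2P12 has 682 bases against 684 in MT-CO2. The ends of the insertion cut through genes. MTND1P23 keeps 372 bases at the 3′ side of the 956 of MT-ND1, and MTCO3P12 keeps 547 of the 784 bases of MT-CO3, counted from its start. All 7 symbols were found in RefSeq's annotation of GRCh38.p14, with the same start for 7 and the same end for 5.

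**Figure D1:**
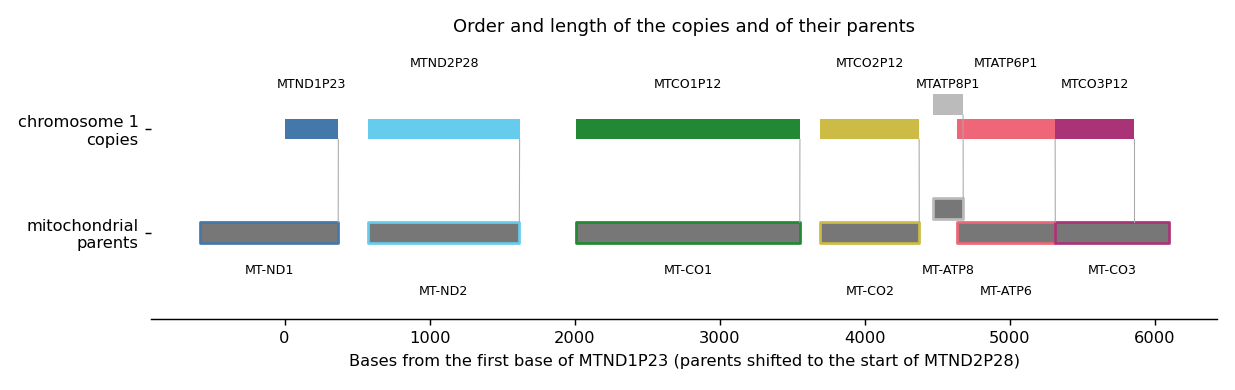
The horizontal axis gives bases from the first base of MTND1P23. Upper bars are the 7 copies and lower bars their parents, shifted so that the starts of MTND2P28 and MT-ND2 coincide. The copies keep the order and spacing of the parents, and the outer copies, MTND1P23 and MTCO3P12, are shorter than MT-ND1 and MT-CO3.

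RefSeq sequence was at hand for parts of the insertion. The first 198 bases of MTND1P23, at chr1:629062-629259 on the plus strand of GRCh38.p14, are shown because they tell how the copy reads as nuclear DNA. Capitals mark a codon AGG in the frame of MT-ND1, carried over by position with the start offset of MTND2P28. The end of MTND1P23 gives an offset larger by 1 base, and no mitochondrial sequence was used here, so the frame holds only if no base was gained or lost. The second line is the hairpin of MIR12136, annotated on the minus strand at chr1:632615-632685, with its mature miRNA in capitals. It overlaps the last 2 bases of MTCO1P12 and ends before MTCO2P12.
MTND1P23: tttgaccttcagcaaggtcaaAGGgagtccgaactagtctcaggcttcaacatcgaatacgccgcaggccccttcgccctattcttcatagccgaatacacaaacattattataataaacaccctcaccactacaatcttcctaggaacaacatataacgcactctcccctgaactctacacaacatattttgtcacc
MIR12136: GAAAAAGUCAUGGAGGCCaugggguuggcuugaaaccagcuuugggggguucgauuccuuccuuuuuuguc

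In that frame the 66 codons of MTND1P23 held 0 stops of the standard genetic code. They held 1 AGG, the codon at place 8 from the first base, which vertebrate mitochondria do not read as an amino acid. Both shifted frames held stops of the standard code, 5 and 3. By the standard code the stretch was thus open in that frame alone. The MIR12136 hairpin of 71 bases corresponds by position to bases 7444 to 7514 of the mitochondrial genome, where MT-TS1, the gene of a serine transfer RNA, lies on the minus strand at 7446 to 7514. MIR12136 was not analysed here. The count table has another miRNA gene inside MTCO1P12, AC114498.2, with 0 reads in all 4 libraries.

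The total counts were 10456770 in nRIP-LC3B, 10000914 in nRIP-IgG, 10782146 in Input-LC3B and 10886762 in Input-IgG. Genes with a read numbered 23915 in nRIP-LC3B and 14440 in nRIP-IgG, against 23082 in Input-LC3B and 22947 in Input-IgG. Genes of the mitochondrial genome took 0.774% of nRIP-LC3B and 1.76% of nRIP-IgG, against 20.8% of Input-LC3B and 22.8% of Input-IgG. All 5 markers listed for this mesenchymal line (VIM, SPARC, COL1A1, RUNX2, CDH2) had reads in every library. The 6 markers of other cell types summed to between 14.7 and 25.6 CPM (reads of a gene scaled to an equal total in each library), most of it EPCAM, and CD3E was at 0 throughout. The 2 sets overlapped in nRIP-IgG, where EPCAM stood at 25.3 CPM and RUNX2 at 8.20. In the other libraries EPCAM was below RUNX2, the lowest of the 5.

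The insertion as a whole was read far less in the pull-downs than in the inputs. Reads of the 7 copies summed to 247 in nRIP-LC3B and 951 in nRIP-IgG, against 16126 in Input-LC3B and 17599 in Input-IgG. As shares of the total count these were 0.00236% (95% exact binomial interval 0.00208 to 0.00268) in nRIP-LC3B, 0.00951% (0.00891 to 0.0101) in nRIP-IgG, 0.150% (0.147 to 0.152) in Input-LC3B and 0.162% (0.159 to 0.164) in Input-IgG. Both pull-downs were thus far below both inputs, with nRIP-LC3B the lower. Since CPM are shares of a library, fewer molecules of a copy, fewer cells and more of other RNA cannot be told apart. The summed copies stood at 0.0158 of Input-LC3B in nRIP-LC3B (95% counting interval 0.0139 to 0.0179) and at 0.0588 of Input-IgG in nRIP-IgG (0.0551 to 0.0628).

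Most of these reads were assigned to 1 copy. MTATP6P1 (ENSG00000248527, 633696 to 634376), the copy of the gene for subunit a of ATP synthase, had 182 reads in nRIP-LC3B, 789 in nRIP-IgG, 15036 in Input-LC3B and 16247 in Input-IgG. That was 73.7% of all reads of the insertion in nRIP-LC3B, 83.0% in nRIP-IgG, 93.2% in Input-LC3B and 92.3% in Input-IgG. By read count its rank among all genes was 7572 in nRIP-LC3B and 2797 in nRIP-IgG, against 45 in Input-LC3B and 38 in Input-IgG. Among genes annotated as unprocessed pseudogenes it ranked first in nRIP-IgG and in both inputs, and was number 3 in nRIP-LC3B.

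The other copies were read far less. MTCO1P12 (631074 to 632616), the copy of the gene for the catalytic subunit of cytochrome c oxidase, had 51 reads in nRIP-LC3B, 126 in nRIP-IgG, 786 in Input-LC3B and 971 in Input-IgG. MTCO3P12 (634376 to 634922), from the gene for subunit III of the same enzyme, had 4 reads in nRIP-LC3B, 24 in nRIP-IgG, 190 in Input-LC3B and 239 in Input-IgG. Both showed the same ordering as MTATP6P1, lowest with LC3B, then IgG, then the inputs. MTCO2P12 (632757 to 633438), from the gene for subunit II of that enzyme, which takes electrons from cytochrome c, had 7 reads in nRIP-LC3B and 4 in nRIP-IgG, against 84 in Input-LC3B and 91 in Input-IgG. Here nRIP-LC3B was not below nRIP-IgG.

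The copies of genes for complex I subunits were near the limit of detection. MTND2P28 (629640 to 630683) had 0 reads in nRIP-LC3B and 6 in nRIP-IgG, against 18 in Input-LC3B and 38 in Input-IgG. MTND1P23 (629062 to 629433) had 3 reads in nRIP-LC3B and 2 in nRIP-IgG, against 12 in Input-LC3B and 13 in Input-IgG. MTATP8P1 (633535 to 633741), the copy of the gene for the small subunit 8 of ATP synthase, had 0 reads in all 4 libraries. A count of 0 allows up to 3 reads, which is 0.287 CPM in nRIP-LC3B, 0.29997 in nRIP-IgG, 0.278 in Input-LC3B and 0.276 in Input-IgG.

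**Figure D2:**
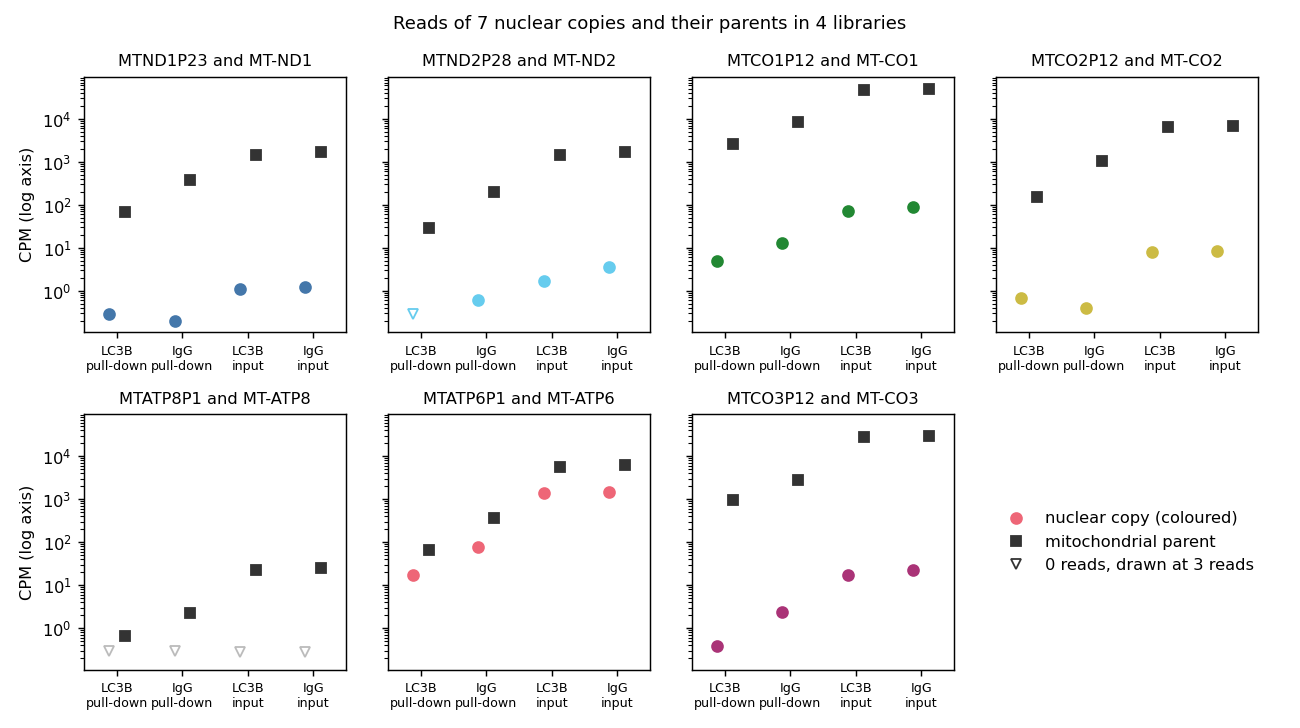
Each panel plots CPM on a log axis for 1 copy (coloured circles) and its parent (dark squares) in the 4 libraries, with 0 reads drawn as an open triangle at the value of 3 reads. MTATP6P1 lies close below MT-ATP6 in every library, whereas MTCO1P12, MTCO2P12, MTCO3P12, MTND1P23 and MTND2P28 lie far below their parents.

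Levels between genes were compared per length, in the deposited TPM. In Input-IgG MTATP6P1 stood at 3224 TPM, against 69.2 for MTCO1P12, 65.7 for MTCO3P12, 18.03 for MTCO2P12, 6.93 for MTND1P23 and 4.30 for MTND2P28. Input-LC3B gave the same order, with 3040 TPM for MTATP6P1 and 57.1 for MTCO1P12 at the top and 2.08 for MTND2P28 at the bottom of the copies with reads. MTCO1P12 and MTCO3P12 were close neighbours in both. The parents did not stand in that order. In Input-IgG MT-CO3 had 54107 TPM and MT-CO1 39124, both above MT-ATP6 with 13397, so the most-read copy does not belong to the most abundant parent. These TPM values use shortened lengths. For the mitochondrial genes and copies with at least 200 reads, the deposited count divided by the deposited TPM rose with gene length along a line that reaches 0 at between 193 and 196 bases. The ATP8 pair, at 207 bases, lies just above that point, and its TPM is not compared with that of longer genes.

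A fold of CPM was called lower where the upper bound of its exact conditional binomial 95% interval was at most 0.5, and higher where the lower bound was at least 2. Only genes averaging 1 CPM or more were tested. Of the 7 copies 5 passed that filter. MTND1P23, with a mean of 0.698 CPM, and MTATP8P1, with none, did not, while MTND2P28, with 1.44, was the lowest to pass. The filter leans on the inputs, where the copies are high, so the counts that follow describe the copies that passed and no more.

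In nRIP-LC3B over its input all 5 that passed were called lower, where 1.75% of the 15108 tested genes were. None was called higher, where 5.82% of all genes were. The rule for choosing the copies had this comparison in view. MTATP6P1 stood at 17.4 CPM in nRIP-LC3B and 1395 CPM in Input-LC3B, a fold of 0.0125 (0.0107 to 0.0144). MTCO3P12 had a fold of 0.0217 (0.00585 to 0.0565), MTCO1P12 of 0.0669 (0.0494 to 0.0889) and MTCO2P12 of 0.0859 (0.0335 to 0.185). MTND2P28, with 0 against 18 reads, had no fold of its own, and the upper bound of its interval was 0.235. MTND1P23, below the filter, had a fold of 0.258 (0.0467 to 0.955). The median log2 ratio of the 5 copies was -3.77, with 0.5 CPM added to each value, against 0.32 over all genes tested.

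In nRIP-IgG over its input the same 5 were called lower, among 29.4% of all genes tested, and none higher, where 15.6% were. MTCO2P12 had the smallest fold, 0.0478 (0.0128 to 0.127), with MTATP6P1 next at 0.0529 (0.0492 to 0.0568), from 78.9 CPM in nRIP-IgG and 1492 CPM in Input-IgG. MTCO3P12 followed at 0.109 (0.0687 to 0.167), MTCO1P12 at 0.141 (0.116 to 0.170) and MTND2P28 at 0.172 (0.0594 to 0.410). MTND1P23 had a fold of 0.167 (0.0183 to 0.740). The median over the 5 was -2.95, against -0.07 over all genes tested.

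Between the pull-downs 2 copies were called lower with LC3B, MTATP6P1 at 0.221 (0.187 to 0.260) and MTCO3P12 at 0.159 (0.0402 to 0.464), where 9.47% of all genes were. None was called higher, where 33.5% of all genes were. MTCO1P12 had a fold of 0.387 (0.274 to 0.540) and was not called. MTCO2P12 stood at 1.67 (0.425 to 7.80) and MTND1P23 at 1.43 (0.164 to 17.2), both with wide intervals, and MTND2P28, with 0 against 6 reads, had an upper bound of 0.812 and was not called. The inputs differed little. None of the 5 copies was called in Input-LC3B over Input-IgG, where 0.126% of all genes were called in each direction. MTATP6P1 stood at 0.934 there (0.914 to 0.955) and MTND2P28, with 18 against 38 reads, at 0.478 (0.257 to 0.859).

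The parents were lower than input too. Their median log2 ratio over input was -4.81 with LC3B and -3.16 with IgG, and that of the 8 other mRNA and rRNA genes of the mitochondrial genome, all called lower in both, was -5.00 with LC3B and -3.22 with IgG. All 7 were called lower over input in both pull-downs, with folds from 0.0118 (MT-ATP6) to 0.0565 (MT-CO1) with LC3B and from 0.0602 (MT-ATP6) to 0.222 (MT-ND1) with IgG. Parents thus differed among themselves by more than 3-fold in each pull-down, which lets a copy be set against its own parent rather than against mitochondrial RNA in general. The pair of MTATP6P1 and MT-ATP6 was nearest to equal. With LC3B the copy stood at 0.0125 and the parent at 0.0118 (0.0109 to 0.0127) of the input, and with IgG at 0.0529 and 0.0602 (0.0583 to 0.0623). MTCO1P12 lay beside MT-CO1 as well, at 0.0669 against 0.0565 (0.0558 to 0.0572) with LC3B and at 0.141 against 0.165 (0.163 to 0.166) with IgG.

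**Figure D3:**
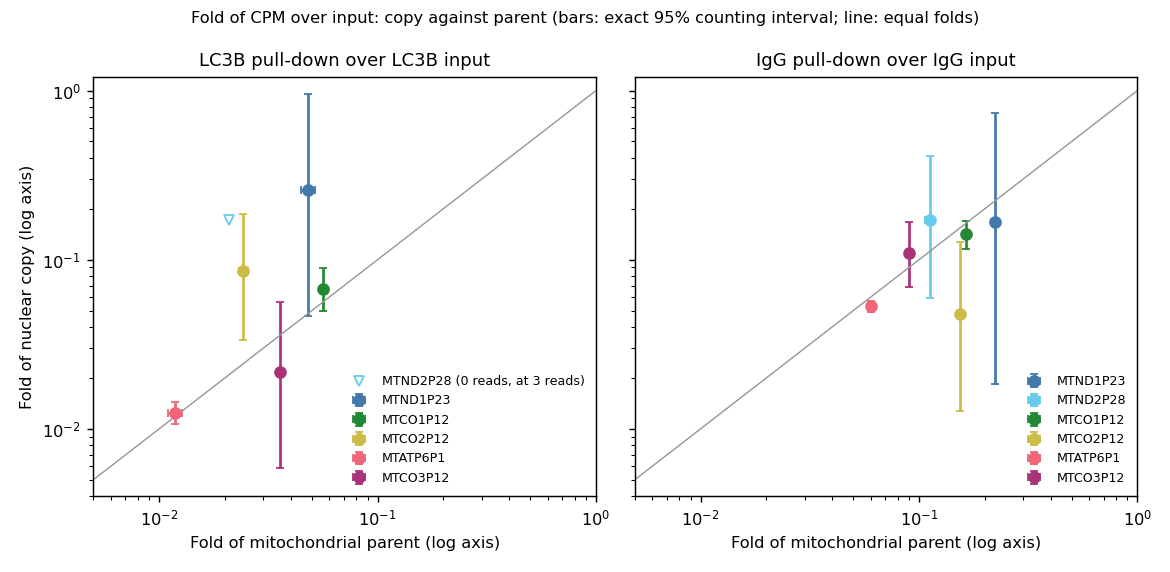
Both axes give the fold of CPM over input on log scales, for the parent horizontally and the copy vertically, with exact 95% counting intervals, nRIP-LC3B on the left and nRIP-IgG on the right. The line marks equal folds. The open triangle sets the 0 reads of MTND2P28 in nRIP-LC3B at 3 reads and carries no interval. MTATP6P1 and MTCO1P12 lie near it in both panels, while MTCO2P12 lies above it with LC3B and below it with IgG.

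A measure that no scaling of the libraries can move is the share of a pair's reads that was assigned to the copy. Its interval does not cover how reads were divided between copy and parent, which is not given. For the ATP6 pair this share was 20.5% in nRIP-LC3B (exact binomial 95% interval 17.9 to 23.3), 17.4% in nRIP-IgG (16.3 to 18.6), 19.6% in Input-LC3B (19.3 to 19.9) and 19.4% in Input-IgG (19.1 to 19.7). About 1 read of the pair in 5 was thus given to chromosome 1 in each library, although the interval of nRIP-IgG lay below those of both inputs. Against Input-LC3B the copy was 80.1-fold and the parent 84.7-fold lower in nRIP-LC3B. Against Input-IgG the copy was 18.9-fold and the parent 16.6-fold lower in nRIP-IgG.

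For the CO1 pair the share was 0.186% in nRIP-LC3B (0.139 to 0.245), 0.152% in nRIP-IgG (0.126 to 0.180), 0.157% in Input-LC3B (0.147 to 0.169) and 0.177% in Input-IgG (0.166 to 0.188). For the CO3 pair it was 0.0392% in nRIP-LC3B (0.0107 to 0.1002), 0.0877% in nRIP-IgG (0.0562 to 0.130), 0.0642% in Input-LC3B (0.0554 to 0.0740) and 0.0722% in Input-IgG (0.0633 to 0.0819). Each pull-down's interval overlapped that of its own input in both pairs. In every library both shares were a small part of that of the ATP6 pair. MTCO3P12 covers only part of MT-CO3, and reads from the rest of the parent enter its share.

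The CO2 pair did not keep its share. It was 0.427% in nRIP-LC3B (0.172 to 0.877) and 0.0374% in nRIP-IgG (0.0102 to 0.0957), against 0.121% in Input-LC3B (0.0965 to 0.150) and 0.120% in Input-IgG (0.0967 to 0.147). The inputs were alike, with nRIP-LC3B above them and nRIP-IgG below them. For the ND1 pair the share was 0.417% in nRIP-LC3B (0.0860 to 1.21), 0.0534% in nRIP-IgG (0.00647 to 0.193), 0.0782% in Input-LC3B (0.0404 to 0.136) and 0.0709% in Input-IgG (0.0377 to 0.121). For the ND2 pair 0 of 310 reads in nRIP-LC3B allow a share of up to 0.968%. The share was 0.309% in nRIP-IgG (0.113 to 0.671), 0.118% in Input-LC3B (0.0697 to 0.186) and 0.201% in Input-IgG (0.142 to 0.276). In the ATP8 pair the limit from 3 reads was 1.25% in Input-LC3B, with 240 parent reads, and 1.11% in Input-IgG, with 271. The exact upper bounds were 1.53% in Input-LC3B and 1.35% in Input-IgG. The pull-downs, with 7 parent reads for LC3B and 22 for IgG, could not show a share at this depth.

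**Figure D4:**
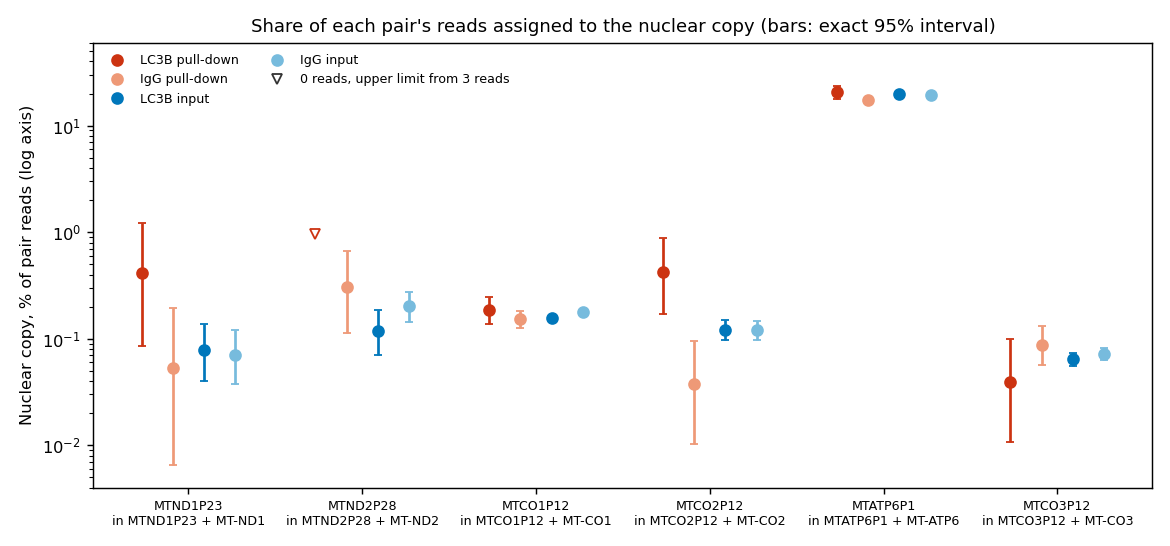
The vertical log axis gives the share of each pair's reads assigned to the copy, in percent, with exact binomial 95% intervals, for the 4 libraries of each pair. The ATP6 pair lies between 17.4% and 20.5%, and the points of the other 5 pairs lie below 1%. The open triangle is the limit that 0 reads of MTND2P28 allow in nRIP-LC3B. Red marks are pull-downs and blue marks inputs, and the ATP8 pair is not drawn.

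The same values can be read as the number of copy reads that a pull-down would hold if the copy had kept the ratio to its parent seen in its own input. For MTATP6P1 with LC3B this number was 172 and 182 were found, and with IgG it was 899 and 789 were found. For MTCO1P12 it was 43.1 against 51 found with LC3B, and 147 against 126 found with IgG. For MTCO3P12 it was 6.56 against 4 found with LC3B, and 19.8 against 24 found with IgG. For these 3 copies the reads found lay between 0.610 and 1.21 times the number carried over from the input. MTCO2P12 departed from it, with 7 found for 1.98 with LC3B and 4 found for 12.9 with IgG. MTND1P23 had 3 reads for 0.561 with LC3B and 2 for 2.65 with IgG, and MTND2P28 had 0 for 0.365 with LC3B and 6 for 3.91 with IgG.

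Expressed as a ratio of ratios (0.5 added per count, log-normal intervals), 4 of the 6 pairs with reads had an interval holding 1 in nRIP-LC3B over its input, and 2 lay above 1. MTATP6P1 to MT-ATP6 had a ratio of 1.06 (0.900 to 1.25) and MTCO1P12 to MT-CO1 of 1.195 (0.901 to 1.59). The ratios above 1 were those of MTCO2P12, 3.77 (1.78 to 7.96), and MTND1P23, 5.99 (1.83 to 19.6), which rest on 7 and 3 reads in the pull-down. In nRIP-IgG over its input 4 intervals again held 1, and 2 lay below 1, MTCO2P12 at 0.348 (0.135 to 0.897) and MTATP6P1 at 0.878 (0.811 to 0.9497). Between the pull-downs 3 pairs lay above 1 with LC3B, namely MTATP6P1 at 1.22 (1.02 to 1.47), MTCO2P12 at 10.9 (3.39 to 35.1) and MTND1P23 at 7.30 (1.44 to 37.1). Between the inputs, which had no antibody, 5 of the 6 intervals held 1 and MTCO1P12 lay below it at 0.891 (0.811 to 0.979). A ratio of 1 pair thus left 1 between libraries without antibody too. For MTATP6P1 to MT-ATP6 the inputs gave 1.01 (0.989 to 1.04), an interval that held 1.

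Sums over the 7 pairs mix them in different proportions and gave other values. The ratio of summed copy reads to summed parent reads was 0.359 (0.316 to 0.407) in nRIP-LC3B relative to its input and 0.439 (0.411 to 0.469) in nRIP-IgG relative to its input. Without the ATP6 pair these values were 1.34 (1.04 to 1.72) and 0.941 (0.800 to 1.11). MTATP6P1 makes up most copy reads, while MT-CO1 and MT-CO3 make up most parent reads and were less reduced than MT-ATP6. A ratio stratified by pair (Mantel-Haenszel, added after seeing the data) was 1.11 (0.964 to 1.27) with LC3B and 0.877 (0.817 to 0.941) with IgG. Between the pull-downs the summed ratio was 0.830 (0.721 to 0.955) and the stratified ratio 1.23 (1.06 to 1.44), so that the direction turned. The inputs gave 1.02 (0.994 to 1.04) summed and 1.003 (0.979 to 1.03) stratified.

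Profiles over the 4 libraries were compared as log2(CPM + 0.5) centred on each gene's mean, by Euclidean distance. This is a description over 4 values that share their libraries. Of the 15 mRNA and rRNA genes of the mitochondrial genome, MT-ATP6 was nearest to MTATP6P1, at a distance of 0.22, and MT-CO1 was nearest to MTCO1P12, at 0.31. MT-CO3 ranked 4th for MTCO3P12, at 0.53. For MTND1P23, MTND2P28 and MTCO2P12 the parent ranked 5th, 11th and 11th, and MT-RNR1 was nearest to each of them. Their pull-down values lay between 0 and 0.669 CPM, close to or below the added 0.5 CPM, as did that of MTCO3P12 in nRIP-LC3B. Outside the mitochondrial genome and the insertion, the genes of at least 10 CPM closest to the summed copies, among 8979 compared, were MTRNR2L12 (1.73), MATR3 (1.93, feature ENSG00000280987, which overlaps another feature of the same symbol, so that its count is uncertain), RN7SL1 (3.26), TWF1 (3.27) and APPL1 (3.44). The nearest of them is itself a nuclear copy of a mitochondrial gene. In the pull-downs MTRNR2L12 and MATR3 also lay close to or below the added 0.5 CPM. MTRNR2L12 had 0.669 CPM in nRIP-LC3B and 0.400 in nRIP-IgG, and MATR3 had 0.191 and 0. Between the pull-downs the fold of MTRNR2L12 was 1.67, against 0.248 for the summed copies.

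MTRNR2L12, a copy of the large mitochondrial rRNA gene on chromosome 3 (96617188 to 96618236), has a parent that behaved otherwise. MT-RNR2 stood at 1.80 (1.76 to 1.83) in nRIP-LC3B over nRIP-IgG, unlike MT-ATP6 at 0.180 (0.166 to 0.196). MTRNR2L12 had 7 reads in nRIP-LC3B, 4 in nRIP-IgG and 259 in each input, and stood at 1.67 (0.425 to 7.80) between the pull-downs. MTCO2P12 had the same 7 and 4 reads, although its parent MT-CO2 stood at 0.146 (0.139 to 0.154) there. The interval of 0.425 to 7.80, the same for both copies, held the fold of MT-RNR2 and lay above that of MT-CO2. It rests on 7 and 4 reads, is wide and covers counting error only. The share of its pair's reads given to MTRNR2L12 was 0.0213% in nRIP-LC3B (0.00856 to 0.0439) and 0.0228% in nRIP-IgG (0.00622 to 0.0584). In Input-LC3B it was 0.0258% (0.0228 to 0.0291) and in Input-IgG 0.0234% (0.0206 to 0.0264). The 4 intervals overlap. In all, 400 other nuclear copies were found by symbol, of which 376 had 0 reads in every library. The 7 copies of the chromosome 1 insertion held 94.3% of the reads of all nuclear copies in nRIP-LC3B, 97.8% in nRIP-IgG, 97.9% in Input-LC3B and 98.2% in Input-IgG.

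Of the 3 genes around the insertion that passed the filter none was called lower than its input. Over all genes tested 1.75% were called lower with LC3B and 29.4% with IgG, so 3 genes are too few to set the surroundings against the insertion. Within 200 kb on either side the table holds 21 other genes, of which 11 had 0 reads in all libraries and 3 passed the filter. LINC01128 had 362 reads in nRIP-LC3B and 151 in nRIP-IgG, against 184 in Input-LC3B and 114 in Input-IgG, a fold of 2.03 (1.69 to 2.44) over input with LC3B and 1.44 (1.12 to 1.86) with IgG. LINC00115, which overlaps it on the other strand, had 123 reads in nRIP-LC3B and 294 in nRIP-IgG, against 134 in Input-LC3B and 128 in Input-IgG. Its fold was 0.946 (0.735 to 1.22) over input with LC3B and 2.50 (2.02 to 3.10) with IgG, where it was called higher, as were 15.6% of all genes. Between the pull-downs it was called lower with LC3B, at 0.400 (0.322 to 0.496), as were 9.47% of all genes. How reads of these overlapping genes were divided is not given. The transcribed pseudogene AL669831.1 had folds of 0.941 (0.605 to 1.46) over input with LC3B and 0.622 (0.360 to 1.05) with IgG. AL669831.3, annotated across the whole insertion on the minus strand, had 1 read in Input-IgG and 0 elsewhere.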

How the data were processed

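RNA of 4 libraries (1 per group) was analysed. The authors deposited raw read counts per gene, an unnormalized unit per the file headers, and TPM made by the authors, per the file headers, with lengths not given. Digit-group commas were removed. Build hg38, cutadapt 2.8 and STAR 2.7.1a are named, per the submitters' processing notes. Not given in the sources used here: counter, annotation release, strand setting, and handling of multi-mapping reads and duplicates. These choices decide how a read that matches both a copy and its parent is assigned. AL669831.3 had a count of 0 in nRIP-LC3B but a TPM of 0.05 there. Whether the deposited counts are rounded estimates is not given, and no interval covers such a step.

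Totals were 10000914 to 10886762 counts. CPM, folds with exact conditional binomial intervals, exact binomial shares and log-normal ratios of ratios were computed in Python 3.11.15 with numpy 2.4.6, pandas 2.3.3 and scipy 1.17.1, and the interval functions were tested on simulated data. A count of 0 was given a floor of 3 counts per library. PCR reads without molecular identifiers are not independent molecules, so intervals and floors cover counting error only. Members, lists and tests were chosen with earlier results of these data known. Named genes were the 7 copies, their parents, neighbours within 200 kb of at least 1 CPM, the 5 other nuclear copies highest in CPM and the 5 genes nearest in profile. The alternatives were other scalings, filters, bounds, added counts, thinning, TPM, left-out pairs and, added after seeing the data, stratification by pair. Sequences are RefSeq's.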

Additional observations from a re-analysis of the deposited data

Results flagged for a closer look

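The ratio of MTCO2P12 to MT-CO2 moved in opposite directions in the pull-downs over their own inputs. It was 3.77 (95% counting interval 1.78 to 7.96) with LC3B and 0.348 (0.135 to 0.897) with IgG, from 7 reads in nRIP-LC3B and 4 in nRIP-IgG, against 84 in Input-LC3B and 91 in Input-IgG. It was the only pair of the 6 with reads whose intervals lay on opposite sides of 1. With 1 library per group the difference between the pull-downs was not tested across samples.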

How the results depend on the processing

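No paired analysis was possible because each group holds 1 library and the labels carry no replicate numbers. The number of copies called lower over input stayed at 5 in both pull-downs under 3 other scalings, without a filter and after thinning. Under these settings the share of all genes called lower lay between 1.14% and 4.79% with LC3B (1.75% in the main setting). With IgG it lay between 17.5% and 33.2% (29.4% in the main setting). With a filter of 5 CPM 3 copies were tested and 3 were called over each input, where 2.03% of all genes were with LC3B and 20.9% with IgG. With bounds of 4 and 0.25 the number was 5 with LC3B (0.258% of all genes) and 4 with IgG (20.7%). Between the pull-downs 2 were called lower with LC3B (9.47% of all genes), 3 with median-of-ratios scaling (11.5%) and 0 with bounds of 4 and 0.25 (2.44%). Totals without mitochondrial genes lower every fold over input by a fixed amount on the log2 scale (-0.32 with LC3B, -0.35 with IgG) and cannot move a ratio of copy to parent. The summed ratio of copies to parents without the ATP6 pair was 1.34 with LC3B over input (0.359 with all pairs), 0.941 with IgG over input (0.439), 1.27 between the pull-downs (0.830) and 0.895 between the inputs (1.02). Stratified by pair, a setting chosen after seeing the data, it was 1.11, 0.877 and 1.23 for the first 3 of these. Other added counts, TPM, thinning and leaving out the ATP8 pair kept it within the counting interval. nRIP-LC3B held 0 to 7 reads of MTND1P23, MTND2P28, MTCO2P12, MTATP8P1 and MTCO3P12, and depth limits what their shares can show.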

Other observations

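A further group of nuclear copies with reads lies together on chromosome 5, where MTND4P12 (134926660 to 134928036) and MTND5P11 (134924648 to 134926459) derive from genes for complex I subunits. MTND4P12 had 0 reads in nRIP-LC3B and 3 in nRIP-IgG, against 30 in Input-LC3B and 31 in Input-IgG. Its share of the reads of the pair with MT-ND4 was 0.0660% in nRIP-IgG (exact binomial 95% interval 0.0136 to 0.193), 0.0608% in Input-LC3B (0.0410 to 0.0868) and 0.0545% in Input-IgG (0.0370 to 0.0774). In nRIP-LC3B 0 of 908 reads allow up to 0.330% by the floor of 3 reads, and the exact upper bound was 0.405%. MTND5P11 had 1 read in nRIP-LC3B and 2 in nRIP-IgG, against 19 in Input-LC3B and 14 in Input-IgG, with shares of the pair with MT-ND5 of 0.161% in nRIP-LC3B (0.00408 to 0.895), 0.0629% in nRIP-IgG (0.00762 to 0.227), 0.0527% in Input-LC3B (0.0317 to 0.0823) and 0.0398% in Input-IgG (0.0217 to 0.0667). In both pairs the intervals of all libraries with reads overlapped. Of the remaining copies highest in CPM, MTCO1P40 had 0 reads in nRIP-LC3B and 3 in nRIP-IgG, against 15 in Input-LC3B and 14 in Input-IgG, and MTRNR2L8 had 0 in both pull-downs, against 8 in Input-LC3B and 2 in Input-IgG.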
